A study of Mus musculus with 4 samples.

Results

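Epithelial cells of the ureter are held together by tight junctions, adherens junctions and desmosomes, and 41 genes that build these contacts or maintain the epithelium were examined on whole-genome arrays of embryonic mouse ureters. The genes were taken by name from a list that was drawn up with earlier results of these data known. Shares of the list set beside those of all genes are therefore description only. All 41 had at least 1 probe on the array, and together they had 57 of its 39429 probes, which carry 29875 gene names. Of the 41, 36 had a probe above background and were measured.

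The mutant ureters, called cDKO (conditional double knockout), carried Tbx18(cre/+) together with Fgfr1(fl/fl) and Fgfr2(fl/fl). The control ureters were Fgfr1(fl/?);Fgfr2(fl/?), so floxed alleles of both fibroblast growth factor receptor genes were present in the 2 groups and the question mark leaves the second allele open. All ureters were dissected by hand at stage E14.5 of embryonic development on the NMRI background. Cre was driven from the locus of Tbx18, a transcription factor gene of the mesenchyme around the ureteric epithelium, while the genes examined here are mainly epithelial. No cre allele is given for the controls, so an effect of the floxed receptor alleles and one of the heterozygous Tbx18 cre allele cannot be told apart. Each of 4 two-colour arrays held 1 cDKO and 1 control extract of the same sex label, female on replicates 1 and 4 and male on replicates 2 and 3. Dyes were swapped: cDKO RNA carried Cy5 on replicates 1 and 3 and Cy3 on replicates 2 and 4, with its control partner in the other dye. The labels name neither animals nor pools, so a p-value reflects how far the 4 pairs of extracts differ from each other, which may be technical.

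Tight junctions seal the space between neighbouring epithelial cells, and claudins form their strands. Adherens junctions join cells through classical cadherins, whose tails bind catenins that connect to actin. Desmosomes hold cells together through desmogleins and desmocollins, tied to keratin filaments by plakoglobin, plakophilins and desmoplakin. The urothelium, the lining of the ureter and bladder, is known for a strong barrier, and in the E14.5 mouse ureter it has not yet reached its mature layered form.

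Probes of Cdh3, of the 4 claudins with the largest ratios by size and of Spint1, whose probes are compared with each other, are shown with 30 bases of each 60-base probe, 5′ to 3′, so that the measured piece of the transcript can be recognised. Positions are those of the array design in build mm9. Capitals mark the 3 bases that the Spint1 probes share.
Cdh3, chr8:109079933-109079992 (+), first 30 bases: tattttccctgttatgtgctgtagatggag
Cldn3, chr5:135463284-135463342 (+), first 30 bases: gcaggcaaaccatgaaacgggccatttcat
Cldn8, chr16:88561135-88561194 (-), first 30 bases: aaagatgttgtccatatgtatttcaactcc
Cldn7, chr11:69781255-69781314 (+), first 30 bases: aaaggcctcctggccactccacctccaaac
Cldn23, chr8:36888537-36888596 (-), first 30 bases: ttgagggagaagaaaagaagacagccacct
Spint1, chr2:119074872-119074931 (+), last 30 bases: agcagccttgagccaggagtactgtatATA
Spint1, chr2:119074929-119074988 (+), first 30 bases: ATAgaaggacctgcttatccaagagctgga

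On replicates 1 to 4, median spot signals were 373, 138.7, 383.4 and 333.2 for cDKO RNA. For control RNA they were 169, 417.3, 301.7 and 373.4. The Cy5 channel was the brighter one on each array, by more on replicates 1 and 2 than on replicates 3 and 4. Saturated spots were absent. Epithelial markers were present. The summed level of 9 markers of simple and ureteric epithelium was 17.86 to 18.21 (log2) in cDKO ureters and 17.92 to 18.08 in control ureters. The keratin genes Krt18 and Krt8 were the brightest of them. Mean levels of Shh and Ret were 8.50 and 8.84 in cDKO ureters and 7.97 and 8.38 in control ureters. Replicates 1 and 2 lay on 1 slide and replicates 3 and 4 on another, scanned on a different scanner. Values below are log2 ratios of cDKO over control with the standard error (SE) of a limma fit over 4 arrays, or log2 channel levels scaled between arrays. The threshold for a call was an adjusted p of 0.05. In whole ureters, fewer epithelial cells and less RNA per epithelial cell cannot be told apart.

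None of the 36 measured genes was called, against 0.852% of the 19365 genes tested. By the unadjusted p, 8 of the 36 (22.2%) lay under 0.05, close to the 19.6% of all genes. The ratios ran from -0.28 for Cldn23, a claudin, to 0.69 for Cdh3, which encodes P-cadherin. Their median was 0.07, beside 0.01 over all genes, and 25 of the 36 (69.4%) lay above 0, as did 52.7% of all genes. On all 4 arrays, 9 genes (25%) lay above 0 and 2 (5.56%) below, where 13.4% and 11.8% of all genes did. The median size of the ratio, without its sign, was 0.10 among the junction genes and also 0.10 over all genes. The 95% interval lay within a 1.5-fold difference either way for 32 of the 36 genes, the exceptions being Cdh3, Cldn3, Cldn8 and Spint1. It lay within 2-fold for 35. These intervals belong to the main processing, and the ratio of the dim Cldn23 probe was larger in size in some other settings.

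**Figure D1:**
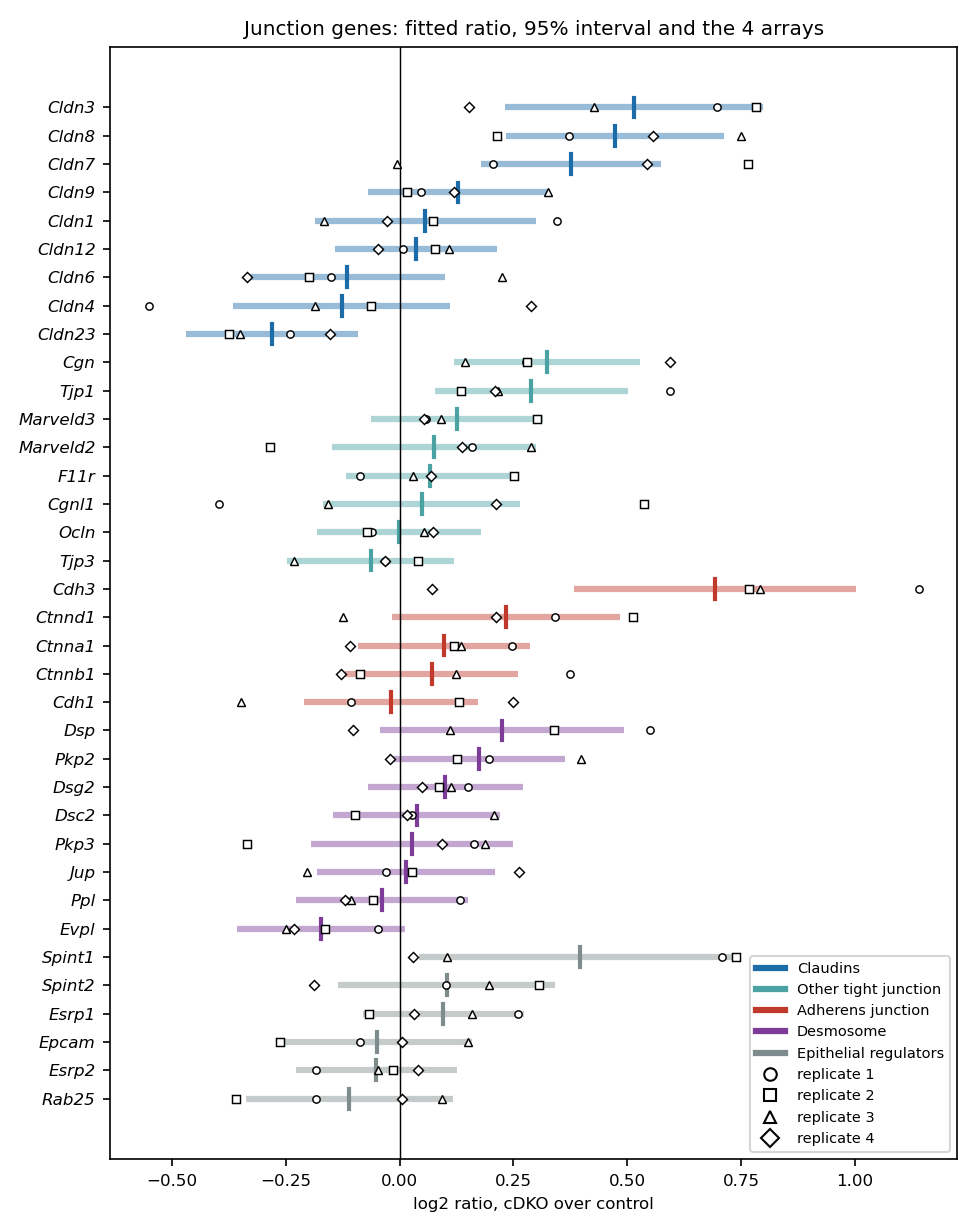
Log2 ratio of cDKO over control for the 36 measured junction genes, by group and by size within a group. Vertical ticks are fitted values, bands their 95% intervals and open symbols the 4 arrays. The intervals of Cdh3, Cldn3, Cldn8, Cldn7, Cgn, Tjp1 and Spint1 lie above 0 and that of Cldn23 below it, although no adjusted p passed.

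Among the 11 claudins, 9 were measured, 6 lay above 0 and 3 below, with a median of 0.06. The largest ratio was that of Cldn3, a sealing claudin of many simple epithelia. Its level was 12.75, 13.01, 13.11 and 13.06 in cDKO ureters of replicates 1 to 4, against 12.05, 12.23, 12.69 and 12.91 in their control partners. The cDKO level was the higher one on every array, but the highest control exceeded the lowest cDKO level. The ratio was 0.51 ± 0.12 (SE, n = 4), a 1.43-fold difference (95% interval 1.17 to 1.74), with an adjusted p of 0.102. Without replicate 4, the array with the smallest Cldn3 ratio, it was 0.67 and passed the threshold (adjusted p = 0.0371), when 2.08% of all genes did. Leaving out replicate 1, 2 or 3 gave no such call.

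Cldn8, a claudin of the distal nephron and collecting duct, had cDKO levels of 14.69, 14.51, 14.58 and 14.53, against 14.32, 14.3, 13.83 and 13.98 in control ureters. All cDKO values exceeded all control values. The ratio was 0.47 ± 0.10 (adjusted p = 0.0877), or 1.39-fold.

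Cldn7, a claudin found along the lateral membrane of many epithelia, was chosen for description after its values were seen. It had cDKO levels of 14.19, 14.56, 14.47 and 14.64, against 13.98, 13.8, 14.47 and 14.1 in control ureters. The pair of replicate 3 was level, with a ratio of -0.006, while the other pairs lay between 0.21 and 0.77. Ratios were lower on replicates 1 and 3, with cDKO RNA in Cy5, than on replicates 2 and 4. Its fitted ratio was 0.38 ± 0.08 (adjusted p = 0.0951).

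Cldn23 lay the other way. Its cDKO levels were 7.65, 7.62, 7.86 and 8.06, against 7.89, 7.99, 8.21 and 8.22 in control ureters, lower on each of the 4 arrays. The ratio was -0.28 ± 0.08, or 0.82-fold, with an adjusted p of 0.141. The groups overlapped, and all these levels were modest.

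The other measured claudins had ratios of smaller size. Cldn9 was at 0.13 ± 0.08, with all 4 arrays above 0, Cldn1 at 0.06 ± 0.10 and Cldn12 at 0.04 ± 0.07. Cldn6, known from embryonic epithelia, was at -0.12 ± 0.09 and Cldn4, a claudin of tight epithelia including the urothelium, at -0.13 ± 0.10. The Cldn4 ratios of the 4 arrays were -0.55, -0.06, -0.19 and 0.29, a spread on both sides of 0. The lowest adjusted p among these 5 genes was 0.441. Cldn1 was well above background on 3 arrays in the cDKO channel and on 4 in the control channel.

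Cldn2, the claudin of leaky, cation-permeable junctions, was not well above background on any array in either channel. Cldn10 was well above background on 3 arrays in the cDKO channel and on 3 in the control channel, short of the 4 required. Neither has a ratio here.

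**Figure D2:**
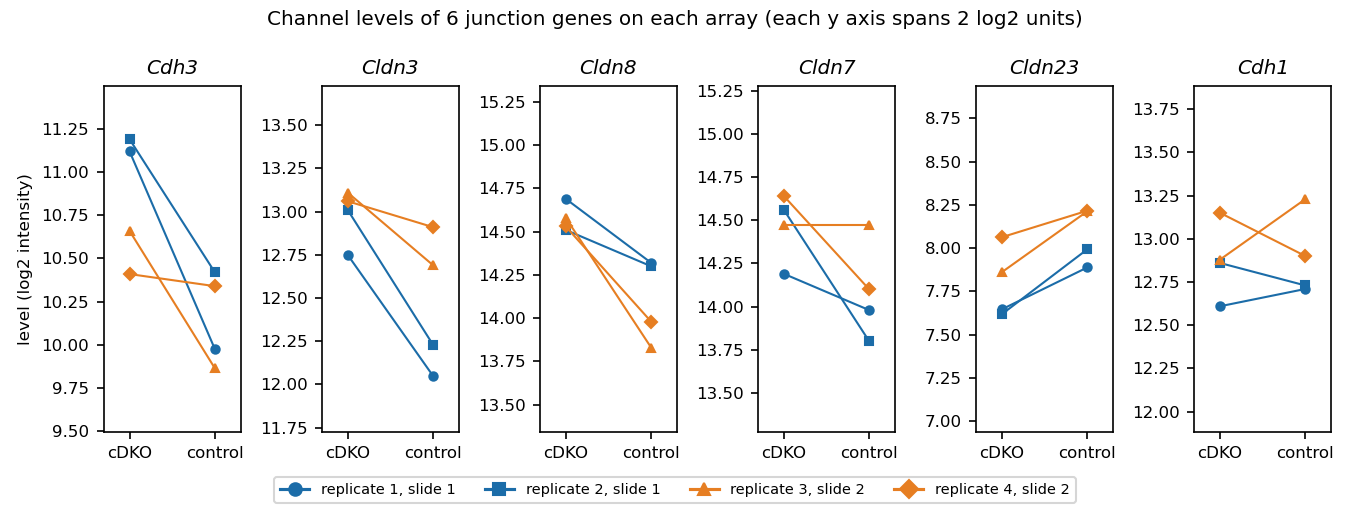
Channel levels (log2 intensity) of 6 junction genes, with a line joining the cDKO and control channels of each array. Each y axis spans 2 log2 units, and axes differ in position because levels of different probes are not comparable. The lines of Cdh3, Cldn3 and Cldn8 slope down from cDKO to control on all 4 arrays, those of Cldn23 slope up, and those of Cdh1 run both ways.

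All 8 of the other tight junction genes were measured, and 6 lay above 0, with a median of 0.07. Cgn, which encodes the cytoplasmic plaque protein cingulin, had levels of 12.33, 12.41, 12.56 and 12.66 in cDKO ureters, against 12.06, 12.13, 12.41 and 12.07 in control ureters. Each pair had the cDKO value on top, with overlap between the groups. The ratio was 0.32 ± 0.09 (adjusted p = 0.124).

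Tjp1, encoding the scaffold ZO-1 that links claudins to actin, had 13.64, 13.42, 13.68 and 13.73 in cDKO ureters, against 13.05, 13.29, 13.47 and 13.52 in control ureters. Replicate 1 had the widest gap, 0.59, and the other arrays 0.13 to 0.22. The ratio was 0.29 ± 0.09 (adjusted p = 0.162).

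Marveld3, encoding a MARVEL-domain membrane protein of tight junctions, had 8.63, 8.65, 8.37 and 8.40 in cDKO ureters, against 8.58, 8.35, 8.28 and 8.35 in control ureters. Its ratio of 0.13 ± 0.08 (adjusted p = 0.428) was led by replicate 2.

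Occludin, tricellulin and the junctional adhesion molecule A are membrane proteins of the same junction, and their genes Ocln, Marveld2 and F11r were at -0.001 ± 0.075, 0.07 ± 0.09 and 0.07 ± 0.08. Tjp3, for ZO-3, was at -0.06 ± 0.08. Cgnl1, for paracingulin, had arrays at -0.40, 0.54, -0.16 and 0.21, a wide spread that went with the dye. Replicates 1 and 3, with cDKO RNA in Cy5, lay below 0 and replicates 2 and 4 above. Its ratio, fitted with a dye term, was 0.05 ± 0.09. The lowest adjusted p among these 5 genes was 0.69.

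All 5 adherens junction genes were measured, 4 above 0, with a median of 0.10. Cdh3 had levels of 11.12, 11.19, 10.66 and 10.41 in cDKO ureters, against 9.98, 10.42, 9.87 and 10.34 in control ureters. The cDKO level was higher in every pair, by 1.14, 0.77, 0.79 and 0.07, so replicate 4 showed almost no difference. The means were 10.84 ± 0.37 in cDKO ureters and 10.15 ± 0.27 in control ureters (SD, n = 4 each). The ratio of 0.69 ± 0.13 is a 1.62-fold difference (95% interval 1.31 to 2.00), and its adjusted p of 0.0675 was the lowest of the 36 genes. Cdh3 passed the threshold without replicate 4 (0.87, adjusted p = 0.0239), when 2.08% of all genes did, and with median centring in place of loess (0.68, adjusted p = 0.0152), when 1.32% did.

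Cdh1, the gene of E-cadherin, the main cadherin of simple epithelia, had levels of 12.61, 12.86, 12.88 and 13.15 in cDKO ureters, against 12.71, 12.73, 13.23 and 12.9 in control ureters. The pairs pointed in opposite directions, 2 up and 2 down, and the split went with the dye. Replicates 1 and 3, with cDKO RNA in Cy5, lay below 0 and replicates 2 and 4 above. The ratio, fitted with a dye term, was -0.02 ± 0.08 (adjusted p = 0.928). Its 95% interval ran from 0.864-fold to 1.13-fold. The catenin genes Ctnnb1 (β-catenin), Ctnna1 (α-catenin) and Ctnnd1 (p120-catenin) were at 0.07 ± 0.08, 0.10 ± 0.08 and 0.23 ± 0.10. The lowest adjusted p of the catenins was 0.281, for Ctnnd1.

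The desmosome list had 8 of 11 genes measured, 6 above 0 and 2 below, with a median of 0.03. None had an unadjusted p under 0.05. Evpl, for envoplakin, a plakin of stratifying epithelia, had 12.07, 12.16, 12.67 and 12.64 in cDKO ureters, against 12.12, 12.33, 12.92 and 12.87 in control ureters. Its ratio of -0.17 ± 0.08 (adjusted p = 0.279) was below 0 on all 4 arrays. Levels in both groups were higher on replicates 3 and 4 than on 1 and 2, by more than the cDKO difference.

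Dsg2, for the desmoglein of simple epithelia, had 8.54, 8.50, 8.61 and 8.43 in cDKO ureters, against 8.39, 8.41, 8.50 and 8.38 in control ureters. The 4 ratios, 0.15, 0.09, 0.11 and 0.05, were close to each other, and the fitted value was 0.10 ± 0.07 (adjusted p = 0.487).

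Dsp, for desmoplakin, which anchors keratin, had ratios of 0.55, 0.34, 0.11 and -0.10 and a fitted value of 0.22 ± 0.11. Pkp2 was at 0.17 ± 0.08 and Pkp3, its fellow plakophilin gene, at 0.03 ± 0.09. Dsc2, a desmocollin gene, was at 0.04 ± 0.08 and Ppl, for periplakin, at -0.04 ± 0.08. Jup, for plakoglobin, was at 0.01 ± 0.08 with mean levels of 6.96 in cDKO ureters and 6.94 in control ureters, and it was well above background on 4 cDKO arrays and 3 control arrays. Dsg3 and Dsc3, desmosomal cadherin genes of stratified epithelia, were not well above background on any array. Pkp1, a plakophilin gene of stratified epithelia, was so on no cDKO array and on 1 control array.

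Of the 6 genes of epithelial adhesion, protease inhibition, splicing and trafficking, 3 lay above 0 and 3 below, with a median of 0.02. Spint1, for a membrane inhibitor of the protease matriptase, had 12.21, 12.2, 12.7 and 12.65 in cDKO ureters, against 11.5, 11.46, 12.6 and 12.62 in control ureters. The control levels of replicates 1 and 2 were the low ones, and the pairs of replicates 3 and 4 were nearly level. The ratio was 0.40 ± 0.15 (adjusted p = 0.217). The second Spint1 probe, whose sequence is shown above beside the first, gave 1.86, 1.76, -0.11 and 0.09 on the 4 arrays, with a fit of 0.90 ± 0.37 (adjusted p over probes = 0.257), the same split between slides.

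Epcam, the epithelial cell adhesion molecule gene, was at -0.05 ± 0.09, with a 95% interval of 0.837-fold to 1.12-fold. The epithelial splicing regulator genes Esrp1 and Esrp2 were at 0.10 ± 0.07 and -0.05 ± 0.07. Spint2, a second protease inhibitor gene, was at 0.10 ± 0.10, and Rab25, for a small GTPase of apical recycling, at -0.11 ± 0.09. The lowest adjusted p among these 5 genes was 0.52.

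Genes of related function that lie side by side were compared by their own values. Cdh3 and Cdh1, whose probes lie 113.8 kb apart on chromosome 8, had ratios of 0.69 and -0.02. Cldn3 and Cldn4, 41.88 kb apart on chromosome 5, had 0.51 and -0.13. Cldn9 and Cldn6, 1.081 kb apart on chromosome 17, had 0.13 and -0.12. The difference within these pairs was not tested.

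For 8 genes more than 1 probe was kept, and the brightest stood for the gene. In 5 of the 8 both probes lay on the same side of 0. In the other three the second probe gave 0.15 for Ocln, -0.02 for Ctnnd1 and -0.003 for Spint2.

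The slides were set against each other, because they were scanned apart. The median ratio of the 36 genes was 0.08 on slide 1 and 0.05 on slide 2. Spint1 was at 0.72 on slide 1 and 0.07 on slide 2, Cdh3 at 0.95 and 0.43, Cldn3 at 0.74 and 0.29, and Dsp at 0.44 and 0.004, while Cldn8 was at 0.29 on slide 1 and 0.65 on slide 2. The difference between slides, with limma, was called for none of the 36 genes, against 0.893% of all genes, with a lowest adjusted p of 0.0869, for Spint1. At an unadjusted p under 0.05 it held for 7 of the 36 genes (19.4%) and for 2767 of all genes (14.3%). Each slide held 2 arrays that differ in both dye orientation and sex label, and fits of a single slide had no dye term. On slide 1 alone Cldn3, Cdh3 and Spint1 passed the threshold (adjusted p = 0.0286, 0.0194 and 0.0299), 8.33% of the 36 beside 2.85% of all genes. On slide 2 alone limma called none of the 36 and none of all genes, with 2 and 1346 at an unadjusted p under 0.05. With a slide term in the fit, which leaves 1 residual degree of freedom, 8 genes passed: Cldn3, Cldn7, Cldn8, Cldn23, Tjp1, Cgn, Cdh3 and Spint1. That is 22.2% of the 36, beside 12.5% of all genes in the same fit. The residual error of that fit, which is also that of the slide comparison, is the difference between sex labels. These calls are therefore not firmer than those of the main fit.

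**Figure D3:**
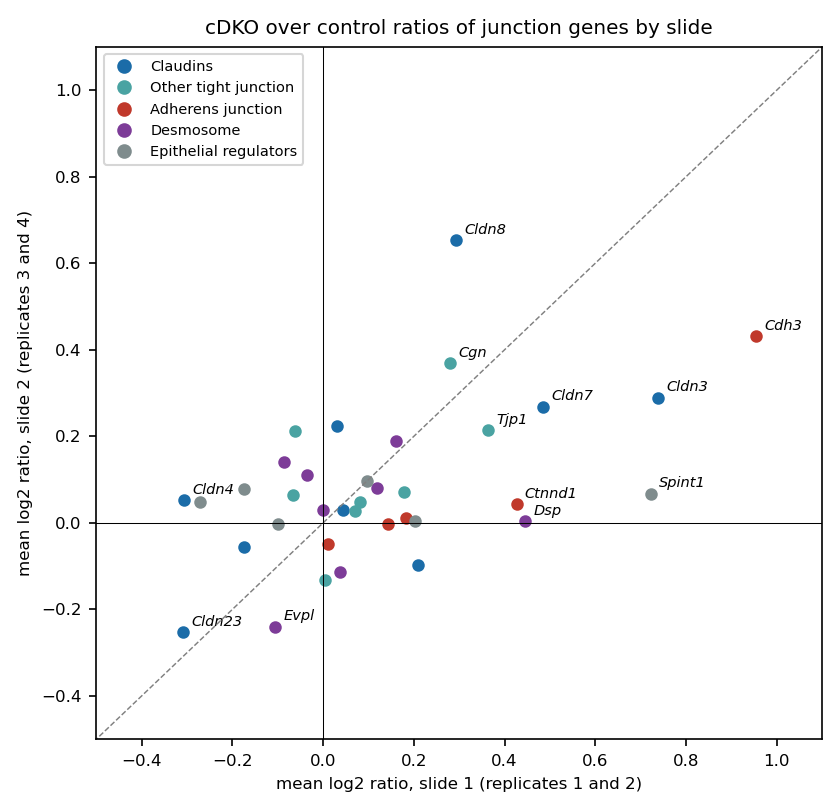
Mean log2 ratio of cDKO over control of the 36 junction genes on slide 1 (x axis) and slide 2 (y axis), coloured by group, with a dashed line of equality. Cdh3, Cldn3, Spint1, Dsp and Ctnnd1 lie to the right of the line, with larger ratios on slide 1, and Cldn8 above it.

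Between female and male arrays, the difference in the cDKO ratio was called for 0 of the 36 genes and for 0 of all genes by limma. At an unadjusted p under 0.05 it held for 0 of the 36 and 207 of all (1.07%), in a fit with 1 residual degree of freedom. The error of that fit is the difference between slides, so the absence of calls cannot show that the sexes are alike. Across the 36 genes, Pearson's r between the ratios of different arrays was 0.09 (replicates 1 and 4) to 0.61 (replicates 1 and 3). Over all genes it was 0.006 to 0.507. These points are genes of shared arrays and not independent replicates, and dye orientation was alike for replicates 1 and 3 and for replicates 2 and 4.

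A list of 33 further junction and polarity genes gave 29 measured genes, 25 above 0 and 4 below, with a median of 0.18. Of these, 15 lay above 0 on all 4 arrays and 4 below, where 13.4% and 11.8% of all genes did. Called genes numbered 3 of the 29, against 165 of the 19365 genes tested (0.852%). This list, too, was drawn up with earlier results of these data known, so its counts are description only. Cxadr, for the coxsackievirus and adenovirus receptor of tight junctions, rose. Its level was 13.13, 12.93, 12.81 and 12.92 in cDKO ureters, against 12.48, 12.37, 12.32 and 12.34 in control ureters, with no overlap. The ratio was 0.57 ± 0.07 (1.48-fold, adjusted p = 0.0374), but the mean over its kept probes was 0.17 (adjusted p = 0.290), so its probes disagree.

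Cdh16, for kidney-specific cadherin, rose, with 15.66, 16.06, 15.86 and 16.12 in cDKO ureters, against 15.27, 15.05, 15.56 and 15.43 in control ureters. All cDKO levels exceeded all control levels, and the ratio was 0.60 ± 0.08 (adjusted p = 0.0425). Perp, for a tetraspan protein of desmosomes, fell, with 12.04, 11.92, 12.13 and 12.4 in cDKO ureters, against 13.42, 13.23, 13.02 and 13.04 in control ureters. Its ratio was -1.05 ± 0.13 (adjusted p = 0.0363), also without overlap. The call was lost in 8, 11 and 5 of 17 alternative settings for Cxadr, Cdh16 and Perp, always in the same direction. Leaving out replicate 1 or 2 ended all 3 calls, and leaving out replicate 3 ended that of Cdh16, with adjusted p-values between 0.0538 and 0.151.

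Of 12 epithelial transcription factor genes, 8 lay above 0 and 4 below, and none was called. Grhl3, a grainyhead-like factor of barrier epithelia, was at -0.58 ± 0.09 (adjusted p = 0.0532) and Gata3 at 0.41 ± 0.10 (adjusted p = 0.114). Of 11 junction genes of mesenchyme and endothelium, 5 lay above 0 and 6 below, none called, with Jam2 at -0.26 ± 0.07 and Cldn5, the claudin of endothelium, at -0.31 ± 0.10. Of 6 transcription factors of epithelial-mesenchymal transition, 3 lay above 0 and 3 below, none called. Twist1 was at -0.40 ± 0.08 (adjusted p = 0.0738) and Snai1 at 0.23 ± 0.10 (adjusted p = 0.286).

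Of the epithelium's own markers, 3 were called and all 3 fell. All 5 markers of superficial and intermediate urothelium lay below 0, with a median of -0.62, and their summed level was 12.41 to 12.94 in cDKO ureters and 13.42 to 13.67 in control ureters. Upk1b, a uroplakin gene, had ratios of -1.67, -2.00, -1.35 and -0.72 on the 4 arrays and fell (-1.43 ± 0.20, adjusted p = 0.0401). Krt20, a keratin gene of superficial cells, had -0.62, -0.49, -0.90 and -0.47 and also fell (-0.62 ± 0.08, adjusted p = 0.0374). Without replicate 1 both missed the threshold (adjusted p = 0.0956), and Krt20 also did without replicate 2 or 3. Of the 9 markers of simple and ureteric epithelium, 6 lay above 0 and none was called. Krt8 was at -0.02 ± 0.10 and Krt18 at 0.13 ± 0.08, the keratin pair of simple epithelia, beside Krt19 at -0.55 ± 0.11 (adjusted p = 0.0824) and Shh at 0.53 ± 0.14 (adjusted p = 0.120). Of 6 basal and stratified epithelium markers 5 were measured and 4 lay below 0, with a summed level of 10.8 to 11.46 in cDKO ureters and 11.62 to 12.01 in control ureters. Among them Sprr1a fell, with ratios of -0.98, -1.24, -0.96 and -0.70 (-0.97 ± 0.10, adjusted p = 0.0282). It was the brightest of the 5, and the median of the list was -0.10. Sfn also lay below 0 on all 4 arrays (-0.44 ± 0.08, adjusted p = 0.0669, not called). Krt5 was at 0.12, Krt14 at -0.10 and Krt15 at -0.03. The Krt15 ratios spread widely over the arrays, at 1.55, -0.72, -0.23 and -0.71. The Sprr1a call was lost in 4 of 17 settings, among them without replicate 1 (adjusted p = 0.0598).

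**Figure D4:**
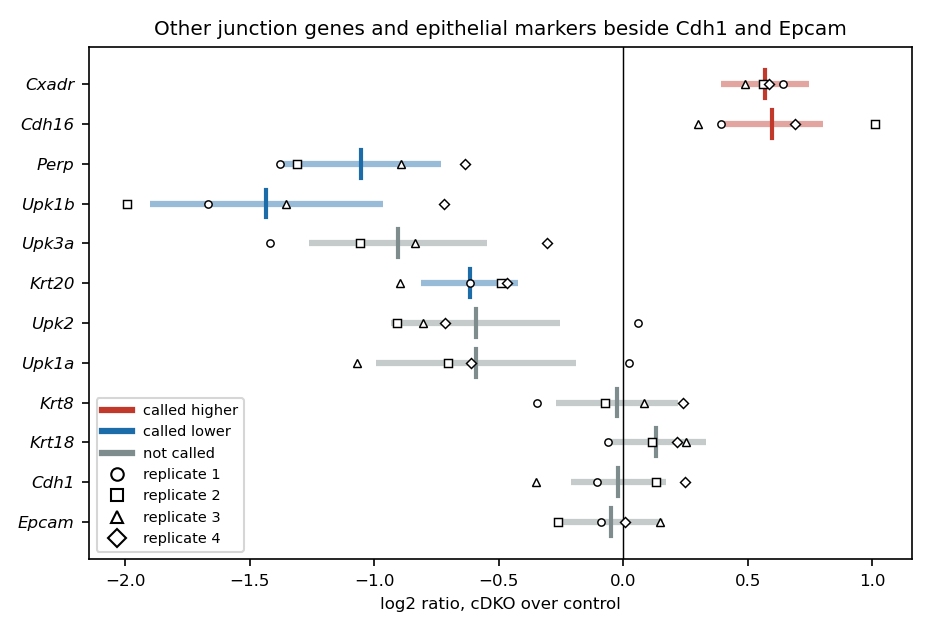
Log2 ratio of cDKO over control for the called junction genes Cxadr, Cdh16 and Perp, the 5 superficial urothelium markers, Krt8, Krt18, Cdh1 and Epcam. Ticks are fitted values, bands 95% intervals and open symbols the 4 arrays. Perp, Upk1b and Krt20 lie below 0, while the bands of Cdh1, Epcam, Krt8 and Krt18 cross 0.

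Other cell types that whole ureters could hold were read from their marker lists. The summed level of 8 mesenchyme and smooth muscle markers was 16.01 to 16.15 in cDKO ureters and 15.87 to 15.99 in control ureters, higher on all 4 arrays, with Tshz3 at 0.38 and Tcf21 at -0.27, not called. Endothelial markers summed to 13.39 to 13.69 in cDKO ureters and 13.64 to 14.15 in control ureters. Macrophage markers summed to 13.35 to 13.68 in cDKO ureters and 13.81 to 14 in control ureters, and erythroid markers to 17.22 to 17.59 in cDKO ureters and 17.63 to 17.83 in control ureters. Each of these 3 sums was lower in cDKO ureters on all 4 arrays. All 5 endothelial and all 5 erythroid markers lay below 0. Of the 5 macrophage and leukocyte markers 4 did, while Ptprc, a leukocyte gene, lay above 0 on all 4 arrays (0.08 ± 0.08).

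Of these lists 4 genes fell, beside 58 lower calls among the 19365 genes tested. Emcn, of endothelium, had ratios of -0.59, -0.65, -0.56 and -0.50 (-0.58 ± 0.07, adjusted p = 0.0363), and Fcer1g, of macrophages, had -0.59, -0.53, -0.36 and -0.58 (-0.52 ± 0.08, adjusted p = 0.0490). The embryonic globin genes Hba-x, with -0.63, -0.67, -0.35 and -1.004 (-0.66 ± 0.09, adjusted p = 0.0425), and Hbb-bh1, with -0.47, -0.61, -0.40 and -0.65 (-0.54 ± 0.07, adjusted p = 0.0385), mark embryonic red cells. In that order the calls were lost in 7, 10, 5 and 8 of 17 settings, with no change of direction. Without replicate 1 or 2 all 4 calls were lost, without replicate 3 those of Emcn, Fcer1g and Hbb-bh1, and without replicate 4 that of Fcer1g.

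The sums for 6 measured nephron markers (13.17 to 13.46 in cDKO and 12.87 to 13.49 in control ureters) and 7 collecting duct markers (12.21 to 12.66 in cDKO and 12.22 to 12.67 in control ureters) were higher in cDKO ureters on 2 arrays and lower on 2. None of these genes was called; those with the smallest p were Pax8 at 0.47 ± 0.13 and Cited1 at 0.12 ± 0.09 of the nephron, and Scnn1a at 0.28 ± 0.09 and Scnn1g at 0.19 ± 0.07 of the collecting duct. The sum of 4 mesothelium markers was also higher on 2 arrays and lower on 2, but 3 of the 4 lay below 0 and the median of the list was -0.35. Msln fell, with -1.06, -0.84, -0.87 and -0.51 (-0.82 ± 0.09, adjusted p = 0.0282), and lost the call in 4 of 17 settings, among them without replicate 1. Gpm6a was at -0.36 ± 0.07 (adjusted p = 0.0808) and Upk3b at -0.34 ± 0.08 (adjusted p = 0.100), while Wt1, the brightest of the 4, was at 0.26 ± 0.14. The part of these cell types in the ratios of the junction genes was not tested.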

How the data were processed

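RNA of 4 cDKO and 4 control ureter extracts was compared on 4 Agilent arrays, per the labels' protocols from 150 ng of total RNA. Spots were read by Agilent Feature Extraction, version 10.7.3.1 per the submitters' processing notes, and probe positions are on mm9 per the file headers. The deposited scanner files give raw mean and background intensity per channel and a log10 ratio of red over green made by the authors' scanner software. The authors' deposited value table holds a signed fold (a score) with a median of 1 per array, with its centring unstated in the labels and headers. Against the scanner ratios its columns correlated at 0.945, -0.935, 0.909 and -0.91, so positive means higher in cDKO. No value column lacked a sample.

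Mean intensity was corrected with normexp (offset 50), normalized by loess (span 0.3) and averaged over unmarked spots. Probes needed at least 3 of 4 spots well above background in the cDKO channel of all 4 arrays, or in the control channel of all 4, which kept 25591 of 39429 (64.9%), 44 of them for the listed genes. The brightest kept probe stood for a gene. limma 3.58.1 (R 4.3.3) was fitted with genotype and dye terms and Benjamini-Hochberg adjustment over 19365 genes, leaving 2 residual degrees of freedom beside 4.53 of the prior. Probes were named by accession (28328), symbol (3400), synonym (243) or the file's name (7458). The fit was tested on simulated data. Arrays being few, their number limits precision.

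The genes and lists were chosen with earlier results of these data known. Levels in every array are given for called junction genes and, per junction group, the 3 largest ratios among genes with the same sign on all 4 arrays. Of other lists, called genes or, where none was called, the 2 with the smallest p are given. Outside these rules, levels of Cdh1 and Cldn7 are also given. So are values of further markers, such as Krt8, Krt18, Krt5, Sfn, Gpm6a, Wt1 and Ptprc. Alternatives changed background, normalization, value source, filter, probe rule, dye, slide and sex terms, and left out slides or replicates.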

Additional observations from a re-analysis of the deposited data

Results flagged for a closer look

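Of the 36 measured junction genes, 1 had an array far from the other three by Dixon's test. Marveld3 had a ratio of 0.30 on replicate 2, while the other arrays gave 0.05 to 0.09, and the gap filled 0.849 of the range, above the critical value of that test at 95% for 4 samples. Chance gives such a value in about 1 of 20 genes.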

How the results depend on the processing

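In 17 alternative settings the junction genes gave 610 values, of which 562 kept both sign and side of the threshold. Junction genes called numbered 1 with median centring (Cdh3), 8 with a slide term, 3 on slide 1 alone, 0 to 2 when 1 replicate was left out (Cldn3 at 0.67 and Cdh3 at 0.87 without replicate 4), and 0 otherwise. All genes called numbered 165, against 255 with median centring, 254 with an offset of 10, 1 without the filter on dim probes, 258 without the dye term, 2418 with a slide term, 2 with a sex term, 551 on slide 1 alone, 0 on slide 2 alone (1346 at an unadjusted p under 0.05 in limma) and 34 to 403 when 1 replicate was left out. Calls per probe numbered 152, against 1 without the filter. Leaving out replicate 1, 2, 3 or 4 gave 34, 56, 266 and 403 called genes. The median of each gene group moved by less than its spread over arrays. That of the adherens junction genes changed sign with median centring, from 0.10 to -0.0093. That of the epithelial adhesion, protease inhibition, splicing and trafficking genes was -0.0016 on slide 1 alone, against 0.02.

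A change of sign occurred in 17 genes, all with values within 0.097 of 0. Median centring gave Ctnna1 -0.015 and Ctnnb1 -0.0093, the authors' table gave Cldn12 -0.0010 and Pkp3 -0.015, and the mean of probes gave Ocln 0.075. Slide 1 alone gave Tjp3 0.0037, Marveld2 -0.063, Cdh1 0.012, Jup -0.0013, Dsc2 -0.036, Pkp3 -0.085 and Ppl 0.036. Slide 2 alone gave Cldn1 -0.097, Cldn4 0.052, Ocln 0.063, Ctnnb1 -0.0026, Epcam 0.077 and Rab25 0.049. Leaving out 1 replicate at a time gave -0.072 to 0.18 for Cldn1, -0.037 to 0.035 for Ocln, -0.033 to 0.13 for Cgnl1, -0.030 to 0.18 for Marveld2, -0.079 to 0.041 for Cdh1, -0.045 to 0.073 for Jup, -0.0074 to 0.083 for Dsc2, -0.080 to 0.13 for Pkp3, -0.099 to 0.021 for Ppl, -0.12 to 0.018 for Epcam and -0.020 to 0.23 for Spint2. The cause was not tested.

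The fit is itself paired, because each array holds the cDKO and control extract of 1 replicate and every ratio is a within-pair value. Of the genes called outside the list, Upk1b, Krt20, Sprr1a, Emcn, Fcer1g, Hba-x, Hbb-bh1 and Msln lost the call in 4 to 10 settings, with no change of direction. Probes near background, such as those of Jup and Cldn1, limit what their ratios can show.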
